A study of Mus musculus with 6 samples.

Results

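Keratins and claudins are the gene families described here: all 72 genes of the deposited table whose symbol is Krt or Cldn followed by digits alone, of 32285 genes in all. They are 49 keratins (26 of type I and 23 of type II) and 23 claudins. The rule used names and no measured value, but it was chosen with earlier results of these data known. The RNA of single cells came from wild type C57BL/6 mouse embryos of day E10.5, whose cardiogenic region had been microdissected. Per the labels, the mothers of 3 samples were pretreated with vehicle and the mothers of the other 3 with streptozotocin, which is toxic to insulin-producing cells and is used to model maternal diabetes, and the sires had normal glycemia. The tissue was dissociated with TrypLE, and droplet libraries of RNA 3′ ends were made with the version 3 kit of 10x Genomics, although the samples' descriptions name a chromatin assay. The deposited matrix pools 6 libraries that are told apart by the last digit of the barcode, and no file used here ties a library to a sample or a treatment. Streptozotocin and vehicle were therefore not compared, no statistical test between samples was run, and each library is given by its number.

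Keratins are the intermediate filament proteins of epithelia, in which a type I chain pairs with a type II chain. Krt8 and Krt18 are the usual pair of simple, single-layered epithelia, Krt7 and Krt19 accompany them, and Krt5, Krt14 and Krt15 mark the basal layer of stratified epithelia. Claudins are membrane proteins that form the strands of tight junctions and set which ions pass between neighbouring cells, and Cldn5 is the main claudin of vascular endothelium. In the pharyngeal arches a sheet of surface ectoderm covers the outside, endoderm lines the pouches, and mesenchyme lies between, while the epicardium is the mesothelial covering that forms over the heart.

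Of 53362 barcodes, 35962 with 2500 or more detected genes and no more than 10% mitochondrial UMIs were retained. A UMI (unique molecular identifier) stands for 1 captured RNA molecule. Libraries held 200462921 to 248426458 UMIs in all, and their retained cells had medians of 30530 to 35630 UMIs. Cells were placed in 5 gates by marker genes with a UMI, none of them a keratin or a claudin. The surface ectoderm gate held 1290 cells, the endoderm gate 2214, the epicardium gate 1193, the endothelium gate 1795 and the mesenchyme gate 11900, and 17570 retained cells (48.9%) stayed outside. Median UMIs per cell were 24040, 28210, 45980, 37020 and 34860 in the same order. Levels are UMIs of a gene per 1000000 UMIs of the gate (CPM), not divided by gene length, and their 95% exact Poisson intervals cover counting error only. They do not cover the spread between embryos or between libraries. The values of the 6 libraries are given for the latter, which can include the treatment, since no library is tied to a sample.

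Markers that were not used for gating checked the gates. In the surface ectoderm gate 4 of 5 were at their highest (Dlx3 was higher in mesenchyme), in endoderm 5 of 6, in epicardium 5 of 5 and in endothelium 6 of 6. Some of these count for little. Esrp1 was at 76.1 CPM in surface ectoderm and 72.55 in endoderm, and Cdx2 was at only 0.0299 CPM in endoderm. None of 6 such markers was highest in mesenchyme, where Col1a1, Col1a2 and Dcn stood below their epicardial levels. Lum and Snai2 were highest in surface ectoderm, at 19.3 and 25.4 CPM against 10.47 and 17.45 in mesenchyme. Osr1 was highest in endoderm (28.3 against 20.3), and Dcn was also higher in endoderm (82.5) than in mesenchyme (5.01). The mesenchyme gate thus rests on the genes it was gated on. Related mesothelium carries the same markers as epicardium and cannot be told apart from it here. Some libraries share barcode sequences. Libraries 4 and 6 shared 1597, libraries 5 and 6 shared 1423 and libraries 4 and 5 shared 1003, against 66 to 374 for every other pair, and 2890 retained cells carry a sequence found in more than 1 library. Library 1 stood apart in sex-linked RNA, with Xist at 383 CPM against at most 0.342 in libraries 2 to 6.

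The members were unevenly expressed. Only 16 of the 72 (8 keratins and 8 claudins) reached 10 CPM in any gate, 9 more had their highest level between 2 and 10 CPM, and 47 stayed below 2 CPM in every gate. Of those 47, 3 (Krt34, Krt2 and Krt71) had no UMI in any gated cell. Among the 16, the highest level was in surface ectoderm for 7, in endoderm for 7, in epicardium for Krt19 and in endothelium for Cldn5, and in mesenchyme for none. The surface ectoderm and endoderm gates both expressed both families, and the epicardium expressed keratins almost without claudins. The endoderm gate was not limited to the pouches, since 446 of its cells had a UMI of Nkx2-1, a thyroid and lung factor. The endothelium expressed 1 claudin at 10 CPM or more. Its keratins summed to 38.4 CPM, led by Krt10 at 15.2 and Krt79 at 8.08 CPM.

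**Figure D1:**
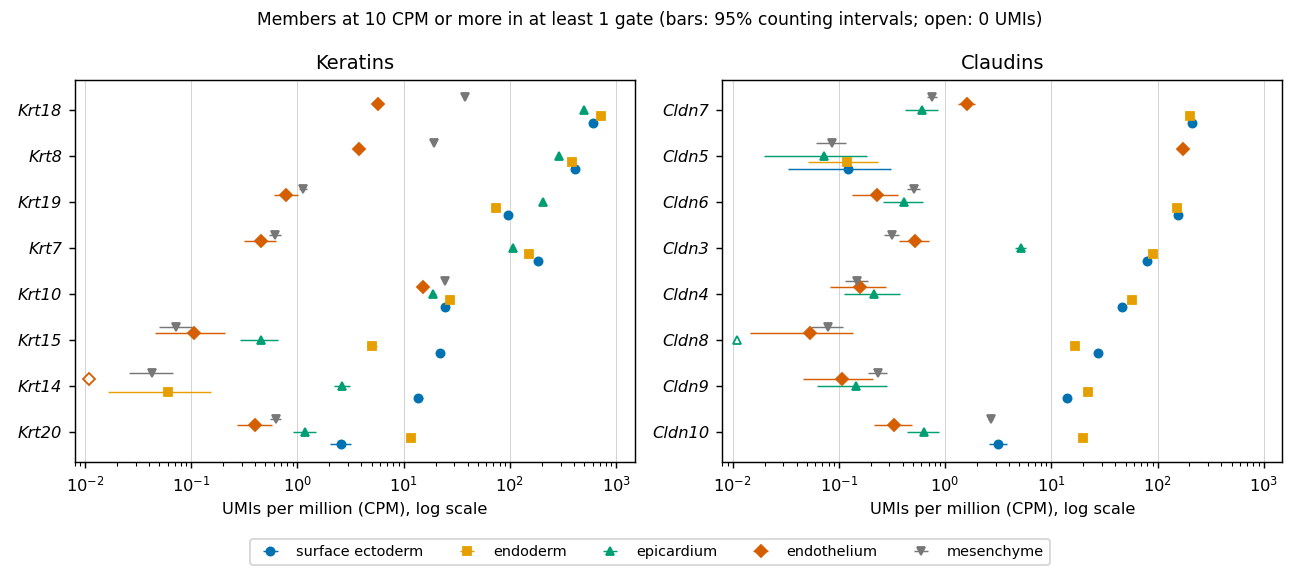
Levels of the 16 members at 10 CPM or more in at least 1 gate, in CPM on a log axis; colours and shapes are the 5 gates, bars are 95% counting intervals, and open symbols are gates with 0 UMIs. Keratins other than Krt15, Krt14 and Krt20 have 3 gates at the right (surface ectoderm, endoderm and epicardium) or, for Krt10, all 5, whereas claudins other than Cldn5 and Cldn10 have surface ectoderm and endoderm alone at the right. Cldn5 has endothelium there and Cldn10 endoderm (20.03 CPM), with its surface ectoderm and mesenchyme (3.17 and 2.69 CPM) side by side.

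The keratin genes lie in clusters and the claudin genes are spread over 10 chromosomes. Of the type I keratins, 25 are on chromosome 11 and 1, Krt18, is on chromosome 15 with all 23 of type II. Krt8 and Krt18 are neighbours there, 23697 bases apart on opposite strands. Cldn3 and Cldn4 lie 39279 bases apart on chromosome 5, and Cldn6 and Cldn9 end 137 bases apart on opposite strands of chromosome 17. Promoter sequences (RefSeq, build GRCm38.p6) were found for 54 of the 72 members and 12 of the 16 named ones, and the 250 bases before each start site were searched for 4 motifs. TATAAA, the core of a TATA box, on the gene's strand, stood in 14 of 36 keratin promoters (38.9%) and 1 of 27 claudin promoters (3.7%), against 7.59% of 32851 promoters of all genes. GGGCGG, a GC box, on either strand, stood in 2 keratin promoters (5.56%) and 12 claudin promoters (44.4%), against 32.7% of all. Some genes have more than 1 promoter in these counts, and the families were divided after the counts over all members had been seen. AACNGGTT, the core motif of grainyhead-like factors, on either strand, stood in 0 keratin promoters and in the Cldn5 promoter alone among the claudins (3.7%), against 1.79% of all, and its form AACCGGTT stood in no member's promoter, against 0.116% of all. The promoters below are shown because they carry the pair with the highest summed levels (Krt8 and Krt18), a keratin whose epicardial level varied between libraries (Krt7), Krt10, which was at 15.2 CPM or more in every gate, epithelial claudins from separate chromosomes (Cldn6 and Cldn4) and the endothelial claudin (Cldn5). Capitals mark matches to the TATA core, to the GC box on either strand and to the grainyhead motif, and each line ends at the base before the start site.
Krt8, chr15:102004343-102004592, minus strand: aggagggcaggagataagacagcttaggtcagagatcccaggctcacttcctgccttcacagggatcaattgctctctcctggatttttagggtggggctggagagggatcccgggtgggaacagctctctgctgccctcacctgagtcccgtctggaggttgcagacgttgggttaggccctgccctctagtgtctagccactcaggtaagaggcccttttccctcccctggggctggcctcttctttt
Krt18, chr15:102027966-102028215, plus strand: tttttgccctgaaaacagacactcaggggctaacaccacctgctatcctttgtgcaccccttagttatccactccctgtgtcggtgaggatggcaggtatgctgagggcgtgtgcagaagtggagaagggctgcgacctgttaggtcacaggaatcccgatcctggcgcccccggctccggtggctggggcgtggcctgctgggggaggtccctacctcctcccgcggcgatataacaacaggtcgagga
Krt7, chr15:101412153-101412402, plus strand: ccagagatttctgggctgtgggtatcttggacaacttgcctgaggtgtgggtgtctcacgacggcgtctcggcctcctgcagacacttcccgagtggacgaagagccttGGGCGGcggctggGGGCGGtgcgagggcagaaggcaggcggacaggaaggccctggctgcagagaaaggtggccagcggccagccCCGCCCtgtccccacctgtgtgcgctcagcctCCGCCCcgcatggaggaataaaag
Krt10, chr11:99389365-99389614, minus strand: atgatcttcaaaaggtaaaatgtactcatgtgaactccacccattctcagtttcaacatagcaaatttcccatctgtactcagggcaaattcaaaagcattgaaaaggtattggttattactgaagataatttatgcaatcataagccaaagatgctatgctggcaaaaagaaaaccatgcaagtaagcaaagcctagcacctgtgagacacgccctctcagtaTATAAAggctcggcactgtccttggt
Cldn6, chr17:23679115-23679364, plus strand: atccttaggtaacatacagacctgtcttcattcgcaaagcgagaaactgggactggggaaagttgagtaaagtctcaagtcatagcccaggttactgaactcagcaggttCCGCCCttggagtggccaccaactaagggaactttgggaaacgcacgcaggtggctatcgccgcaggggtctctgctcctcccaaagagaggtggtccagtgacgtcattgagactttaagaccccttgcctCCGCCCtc
Cldn4, chr5:134946935-134947184, minus strand: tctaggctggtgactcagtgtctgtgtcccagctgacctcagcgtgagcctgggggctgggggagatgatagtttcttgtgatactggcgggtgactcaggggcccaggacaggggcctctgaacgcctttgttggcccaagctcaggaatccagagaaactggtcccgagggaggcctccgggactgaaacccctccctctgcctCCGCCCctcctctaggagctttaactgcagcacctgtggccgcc
Cldn5, chr16:18776597-18776846, plus strand: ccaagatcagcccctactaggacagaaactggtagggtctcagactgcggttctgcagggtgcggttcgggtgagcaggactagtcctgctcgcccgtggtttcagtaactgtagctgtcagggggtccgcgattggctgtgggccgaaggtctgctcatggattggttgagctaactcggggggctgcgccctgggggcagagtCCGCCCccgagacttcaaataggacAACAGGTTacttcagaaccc
The 250 bases before Krt8 and Krt18 held none of the 4 motifs. Krt7 had 4 GC boxes and no TATAAA, while Krt10 had TATAAA 26 bases before its start and no GC box. Cldn6 had 2 GC boxes, Cldn4 had 1, and Cldn5 had 1 GC box and AACNGGTT 20 bases before its start. These start sites are those of RefSeq and can differ from the GENCODE gene coordinates. The Krt8, Krt18 and Cldn6 windows lie partly, and the Krt7 window wholly, inside the genes as GENCODE gives them. A match describes letters and is not a measured binding site.

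Krt8, a type II keratin, and Krt18, its type I partner, were the most abundant members. Krt18 (ENSMUSG00000023043, chr15:102028180-102032027) was at 713 CPM in endoderm (interval 707 to 719, 47627 UMIs), 606 in surface ectoderm (597 to 614), 497 in epicardium (492 to 503), 37.6 in mesenchyme and 5.72 in endothelium. By library, from 1 to 6, endoderm had 653, 666, 714, 700, 793 and 715 CPM and surface ectoderm 585, 734, 552, 648, 548 and 533 CPM. Endoderm was higher in 5 of 6 libraries, all but library 2, and the ranges of the 2 gates overlapped. Epicardial levels were 537, 573, 498, 504, 398 and 428 CPM, below both epithelia in each library and lowest in libraries 5 and 6.

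Krt8 (ENSMUSG00000049382, chr15:101996698-102004482) was at 409 CPM in surface ectoderm (402 to 415), 384 in endoderm (379 to 389), 287 in epicardium (283 to 291), 19.5 in mesenchyme and 3.78 in endothelium. By library, surface ectoderm had 355, 520, 367, 470, 380 and 329 CPM and endoderm 365, 397, 398, 379, 409 and 358 CPM. Surface ectoderm was higher only in libraries 2 and 4, so the order of the sums rests on those libraries, and without library 2 endoderm was the higher. The gates did not differ beyond the spread of the libraries.

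After each cell was thinned to 10000 UMIs, Krt8 and Krt18 both had a UMI in 89.4% of surface ectoderm cells, 92.1% of endoderm cells and 70.0% of epicardial cells, against 6.33% in mesenchyme and 0.566% in endothelium. Before thinning the shares were 98.1%, 98.8%, 87.2%, 12.6% and 1.78%. Thinning left out 25 to 48 cells per gate. Krt8 UMIs per Krt18 UMI were 0.674 in surface ectoderm (0.660 to 0.689), 0.539 in endoderm (0.531 to 0.547), 0.577 in epicardium and 0.517 in mesenchyme. The ratio was higher in surface ectoderm than in endoderm in all 6 libraries, at 0.608 to 0.725 against 0.500 to 0.596. The pair was thus present in all 3 sheets of cells, in slightly different proportions.

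Krt7, the type II keratin of simple and ductal epithelia, was at 182 CPM in surface ectoderm (177 to 186), 153 in endoderm (150 to 156), 108 in epicardium (105.2 to 111), 0.616 in mesenchyme and 0.453 in endothelium. Its epicardial level was uneven between libraries. It was 144, 138 and 135 CPM in libraries 1, 2 and 3 and 59.7, 47.1 and 57.7 CPM in libraries 4, 5 and 6, higher in each of the first 3 libraries than in any of the others. Endodermal Krt7 had no such order, at 135, 131, 183, 148, 181 and 135 CPM, and neither had surface ectoderm, at 209, 209, 152, 170, 157 and 187 CPM.

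Libraries 4, 5 and 6 are those that share most barcodes, and recurring sequences made up 45 of 109, 58 of 218 and 30 of 147 of their epicardial cells. Without them epicardial Krt7 was at 138, 134, 136, 31.4, 34.8 and 43.1 CPM in libraries 1 to 6, so the gap between those libraries was wider. Other epicardial genes moved with it. Muc16, a mesothelial mucin, was at 8.64, 9.06 and 10.7 CPM in libraries 1 to 3 and 3.404, 3.19 and 3.85 in 4 to 6, and Upk3b, a uroplakin, at 494, 483 and 598 against 351, 320 and 324. Wt1 (238 to 266 against 197 to 226 CPM) and Dcn (266 to 330 against 187 to 194) had that order too. So had Msln, at 1.495 to 2.77 against 1.001 to 1.23 CPM. Upk3b, Wt1 and Msln are markers of the epicardium gate. Aldh1a2, the enzyme that makes retinoic acid, had no such order, at 78.1, 81.3, 125, 73.3, 132 and 96.5 CPM. Tcf21 had none either, at 218, 277, 291, 224, 213 and 240 CPM. Their part in the Krt7 levels was not tested.

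Krt19, a type I keratin without the tail domain of its relatives, was the only keratin at 10 CPM or more in any gate that had its highest level in epicardium. It was at 203 CPM there (199 to 207), 96.5 in surface ectoderm (93.2 to 99.9), 74.5 in endoderm (72.5 to 76.6), 1.13 in mesenchyme and 0.786 in endothelium. By library the epicardium had 241, 242, 209, 199, 128 and 160 CPM, the surface ectoderm 113, 104.7, 78.8, 95.6, 96.5 and 88.7 CPM, and the endoderm 73.3, 76.0, 83.9, 64.3, 79.5 and 71.5 CPM. Epicardium was highest in 6 of 6 libraries and its range did not overlap those of the other gates. Its range did overlap that of a subset of the endoderm gate, the Foxa2 cells described below, at 98.6 to 144 CPM. Krt19 took 18.1% of epicardial keratin UMIs (17.8 to 18.4), against 7.06% in surface ectoderm and 5.41% in endoderm. Without recurring barcodes the epicardial levels of libraries 4, 5 and 6 were 131, 95.4 and 131 CPM. That of library 5 then lay within the surface ectoderm range and just below the 96.5 CPM of its own surface ectoderm, so the separation of the ranges rests in part on those cells.

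**Figure D2:**
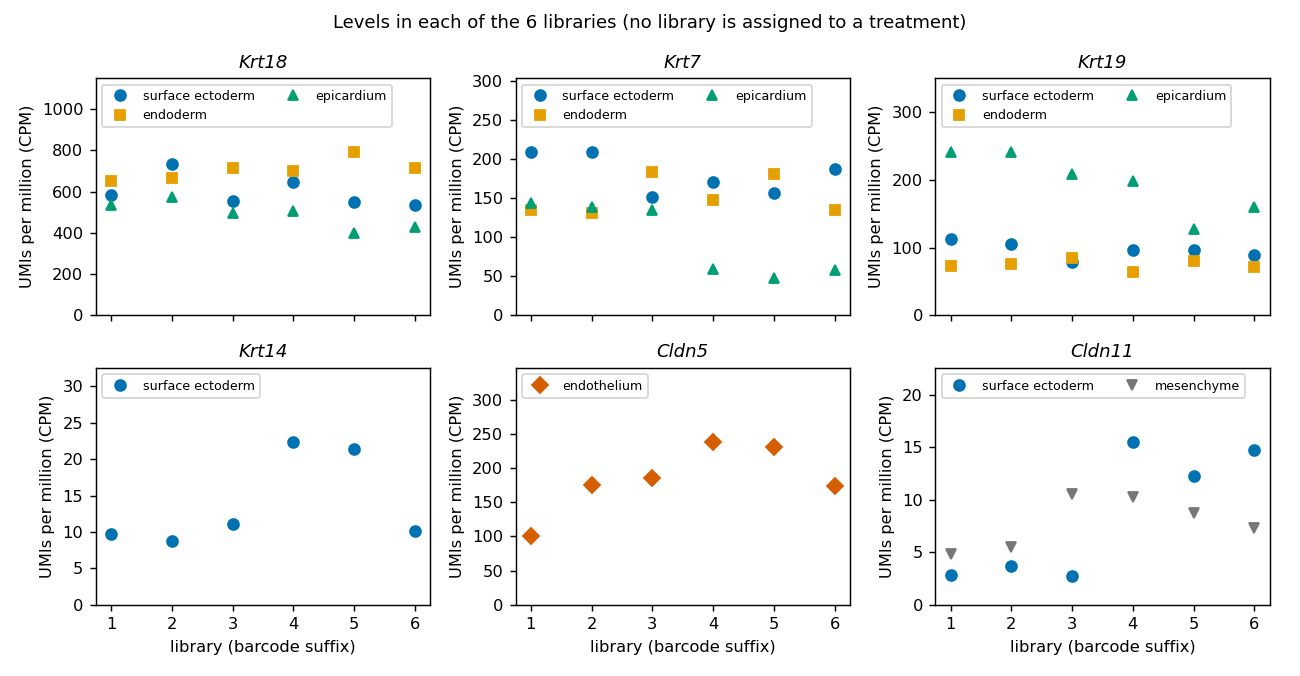
Levels of 6 members in each of the 6 libraries, in CPM on linear axes that start at 0; colours are gates. Epicardial Krt7 lies between 135 and 144 CPM in libraries 1 to 3 and between 47.1 and 59.7 in libraries 4 to 6, epicardial Krt19 lies above both epithelia in every library, and ectodermal Cldn11 is above 12 CPM in libraries 4 to 6 alone.

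Other keratins had lower levels. Krt15, a basal keratin, was at 21.9 CPM in surface ectoderm (20.3 to 23.6) and 5.03 in endoderm, 4.36 times lower (interval of the ratio 3.82 to 4.97). By library surface ectoderm had 28.7, 23.3, 26.5, 15.2, 18.5 and 18.8 CPM and endoderm 2.59, 5.43, 6.99, 4.60, 5.75 and 4.64, with no overlap. Krt14, the type I partner of Krt5 in basal keratinocytes, was at 13.7 CPM in surface ectoderm, 2.64 in epicardium, 0.0599 in endoderm and 0.0430 in mesenchyme, with 0 UMIs in endothelium. In surface ectoderm it was at 9.71, 8.79, 11.2, 22.4, 21.4 and 10.1 CPM, with libraries 4 and 5 above the other 4, also without recurring barcodes (23.7 and 21.9 CPM).

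Krt5 reached 4.79 CPM in surface ectoderm and 3.25 in endoderm. After thinning, Krt5 and Krt14 were found together in 0.402% of surface ectoderm cells, Krt14 alone in 9.01% and Krt5 alone in 4.34%, and before thinning the pair was in 1.55%. Krt20, a keratin of gut and urothelial epithelium, was at 11.7 CPM in endoderm (10.8 to 12.5) and 2.56 in surface ectoderm, and endoderm was higher in 6 of 6 libraries (9.43 to 14.1 against 1.43 to 3.24). Krt10, known from the upper layers of the epidermis, was found in every gate, at 24.5 CPM in surface ectoderm, 27.4 in endoderm, 18.8 in epicardium, 15.2 in endothelium and 24.5 in mesenchyme. Its libraries stood at 13.0 to 16.9 CPM in endothelium, below all those of surface ectoderm (20.7 to 27.7), endoderm (24.0 to 30.0) and mesenchyme (21.9 to 27.2), and at 16.6 to 22.5 in epicardium. Its share of cells with a UMI was 14.2% to 24.0% in the 5 gates after thinning and 42.2% to 56.7% before.

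Among the abundant claudins, Cldn7, Cldn6, Cldn3 and Cldn4 were shared by the surface ectoderm and endoderm gates. Cldn7 (ENSMUSG00000018569, chr11:69964779-69967885), a broadly epithelial claudin, was at 210 CPM in surface ectoderm (205 to 215), 202 in endoderm (199 to 206), 0.610 in epicardium, 1.61 in endothelium and 0.752 in mesenchyme. By library surface ectoderm had 201, 196, 201, 226, 245 and 195 CPM and endoderm 185, 188, 205, 200, 223 and 203, with surface ectoderm higher in 4 of 6. Cldn6, a claudin of embryonic epithelia, was at 157 CPM in surface ectoderm (153 to 161) and 152 in endoderm (149 to 155), with surface ectoderm higher in 5 of 6 libraries. For both the ranges of the 2 epithelia overlapped, and the other 3 gates were at 0.227 to 1.61 CPM.

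Cldn3 and Cldn4, sealing claudins that are also receptors for a clostridial toxin, were higher in endoderm, Cldn3 in 5 of 6 libraries and Cldn4 in 6 of 6. Cldn3 was at 91.6 CPM in endoderm (89.3 to 93.9) and 79.0 in surface ectoderm (76.0 to 82.1), and Cldn4 at 57.2 (55.4 to 59.0) and 46.0 (43.7 to 48.4). Cldn4 had 62.2, 62.4, 58.2, 57.7, 53.4 and 52.9 CPM in endoderm and 46.1, 48.1, 42.8, 49.9, 46.6 and 42.1 in surface ectoderm, with no overlap. Cldn3 alone of these was also seen in epicardium, at 5.17 CPM (3.99 to 7.41 over libraries), where Cldn4 was at 0.215.

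Cldn8, a claudin of tight, ion-resistant epithelia, was at 27.3 CPM in surface ectoderm (25.5 to 29.2) and 16.8 in endoderm (15.8 to 17.8). Surface ectoderm was higher in 6 of 6 libraries, at 21.3, 25.9, 32.5, 24.8, 30.3 and 29.5 CPM against 12.3, 14.9, 13.5, 16.9, 20.1 and 19.7, with no overlap. Cldn9, the neighbour of Cldn6, was higher in endoderm, at 22.0 CPM (20.8 to 23.1) against 14.1 (12.9 to 15.5), in 6 of 6 libraries. Cldn6 UMIs per Cldn9 UMI were therefore 11.1 in surface ectoderm (10.1 to 12.2) and 6.92 in endoderm (6.55 to 7.32), and the 6 library ratios, 8.76 to 14.9 and 6.07 to 7.95, did not overlap.

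Cldn10, which forms ion channels between cells, was at 20.03 CPM in endoderm (19.0 to 21.1), 3.17 in surface ectoderm and 2.69 in mesenchyme. By library endoderm had 25.1, 22.6, 14.2, 17.1, 16.3 and 24.7 CPM, all above the 1.52 to 5.63 CPM of surface ectoderm. Its endodermal level was 10.47 CPM when 1 more marker was needed for the gate. What lowered it was not tested.

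Cldn5 (ENSMUSG00000041378, chr16:18776847-18778262) was the claudin of the endothelium gate. It was at 175 CPM there (172 to 178, 13140 UMIs), and the other 4 gates had 4 to 38 UMIs each, or 0.0718 to 0.122 CPM. By library it was at 100, 175, 185, 239, 231 and 174 CPM, lowest in library 1 and highest in 4 and 5. Without recurring barcodes it was at 89.0, 157, 172, 261, 222 and 164 CPM. It made up 95.5% of endothelial claudin UMIs (95.1 to 95.8). Of thinned endothelial cells 39.9% had a Cldn5 UMI (37.6 to 42.3), and 51.9% before thinning, while in mesenchyme, which should lack it, the shares were 0.0759% and 0.294%.

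Summed over all members, keratins were at 1367 CPM in surface ectoderm, 1379 in endoderm, 1123 in epicardium, 85.8 in mesenchyme and 38.4 in endothelium. Claudins were at 563, 585, 21.9, 19.7 and 183 CPM in the same gates. Epicardial keratins ranged from 811 to 1331 CPM between libraries and epicardial claudins from 18.7 to 27.8 CPM, a level close to the 15.4 to 23.4 CPM of mesenchyme. After thinning, at least 3 keratins had a UMI in 85.4% of surface ectoderm cells (83.3 to 87.3), 78.6% of endoderm cells (76.8 to 80.3) and 67.5% of epicardial cells (64.7 to 70.2). At least 3 claudins had one in 61.1%, 70.4% and 0.171% of them, and 81.8% of epicardial cells had none. Before thinning, the shares with at least 3 claudins were 85.9%, 94% and 3.6%, and 46% of epicardial cells had none. Of endothelial cells, 73.9% had no keratin UMI after thinning and 38.4% had none before.

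**Figure D3:**
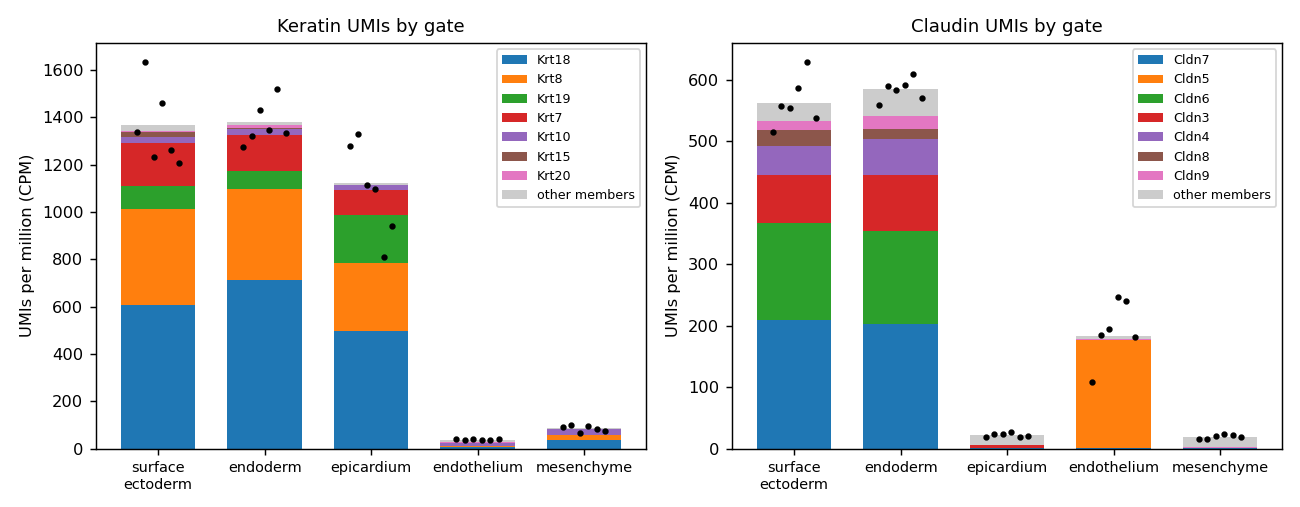
Summed keratin (left) and claudin (right) levels in the 5 gates, in CPM, stacked by member; dots are the 6 library sums. Krt18 and Krt8 fill most of the keratin bars of surface ectoderm, endoderm and epicardium, the claudin bars of surface ectoderm and endoderm (563 and 585 CPM) hold several members, and that of endothelium (183 CPM) is nearly all Cldn5.

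Differences of at least 2-fold were counted over members and set against all genes. Of the 72 members, 33 (18 keratins and 15 claudins) passed a level of 0.1 CPM over all retained cells, as did 19047 genes. At least 2-fold above mesenchyme were 18 members in surface ectoderm (10 keratins, 8 claudins), where 13.9% of all tested genes were. In endoderm 21 were (11 and 10), with 15.2% of all genes. In epicardium 14 were (10 keratins and 4 claudins), with 11.7% of all genes, and in endothelium 6 were (4 and 2), with 12.2%. Members that pass such a level through 1 high gate had to differ, so the counts are a description. The epicardial count fell to 9 when cells were thinned, and levels below 2 CPM carry several of these calls.

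Between the 2 epithelia, 8 of the 33 members differed by that much. Krt14, Krt15 and Krt17 (9.09% of the 33) were at least 2-fold higher in surface ectoderm, as were 5.55% of all genes. Cldn10, Cldn18, Krt20, Krt36 and Krt90 (15.2%) were at least 2-fold higher in endoderm, as were 8.44% of all genes. No claudin was at least 2-fold higher in surface ectoderm. Of the members called here, Krt17, Krt36 and Krt90 had their highest gate below 2 CPM.

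The members between 2 and 10 CPM had their highest levels in different gates. Cldn11, Cldn23, Cldn12, Krt5 and Krt1 had their highest level in surface ectoderm, Cldn18 and Cldn1 in endoderm, Cldn15 in epicardium and Krt79 in endothelium. Cldn12 was highest in surface ectoderm in 4 of 6 libraries and Cldn11 in 3 of 6, and the interval of the ratio to the next gate reached below 1 for both (0.966 to 1.33 and 0.946 to 1.21). Cldn11 and Krt79 are described further, a choice made after their values were seen. Cldn11, a claudin of myelin and testis barriers, was at 8.41 CPM in surface ectoderm (7.45 to 9.47) and 7.84 in mesenchyme (7.58 to 8.10). In surface ectoderm it was at 2.86, 3.70, 2.74, 15.5, 12.2 and 14.7 CPM, with libraries 4, 5 and 6 all above the rest (11.8, 12.5 and 15.4 CPM there without recurring barcodes), and in mesenchyme at 4.82, 5.53, 10.6, 10.3, 8.75 and 7.30 CPM.

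Within the endoderm gate, several keratins and Cldn10 varied with position markers. The gate was split, by a choice made after the files were read, into 446 cells with a UMI of Nkx2-1 (a thyroid and lung factor), 953 others with Pax1 (a pouch factor), and 620 others with Foxa2, and the remaining cells, without any of the 3, were left out. Pax1 and Foxa2 are also gate markers, and Nkx2-1 is not. Cldn10 was at 40.6 CPM in the Pax1 cells, 1.95 in the Nkx2-1 cells and 1.36 in the Foxa2 cells. In Pax1 cells the libraries had 43.6, 40.6, 27.2, 37.4, 41.0 and 48.2 CPM, all above the highest of the other subsets, 7.11. Krt7 had the opposite order, at 78.3 CPM in Pax1 cells (70.1 to 87.7 over libraries), 172 in Nkx2-1 cells (125 to 211) and 265 in Foxa2 cells (216 to 296), with no overlap between the 3.

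Krt8 and Krt18 were also lowest in the Pax1 cells. Krt8 was at 274, 430 and 508 CPM in Pax1, Nkx2-1 and Foxa2 cells and Krt18 at 536, 811 and 921 CPM, and for both genes every library of the Pax1 cells lay below every library of the other subsets. Krt19, Krt20 and Krt15 were highest in the Foxa2 cells, Krt19 at 123 CPM against 50.2 and 48.7 in the Nkx2-1 and Pax1 cells, Krt20 at 23.8 against 7.73 and 4.64, and Krt15 at 11.6 against 1.78 and 2.08. Of the claudins, Cldn6 was at 178, 121 and 190 CPM, Cldn3 at 109, 97.8 and 72.9, Cldn4 at 44.8, 53.0 and 67.9, and Cldn8 at 11.4, 15.2 and 20.3 in Nkx2-1, Pax1 and Foxa2 cells. Cldn7, at 216, 206 and 199 CPM, and Krt10, at 27.0, 27.6 and 26.7 CPM, were nearly level over the 3 subsets.

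Cldn18, a claudin of lung and stomach, was named by its highest gate only, and its split was added after its values were seen. It was at 14.6 CPM in endoderm cells with a UMI of Nkx2-1 and 0.0540 in those without. In the gate as a whole its libraries stood at 0.338, 0, 6.99, 2.16, 3.28 and 2.21 CPM. The share of endoderm cells with an Nkx2-1 UMI was 11.8%, 10.6%, 20.7%, 24.9%, 25.3% and 23.6% in the same libraries, lowest in the 2 libraries where Cldn18 was lowest, while library 3, with the highest Cldn18, had a lower share than libraries 4 to 6. Its part in the Cldn18 levels was not tested.

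**Figure D4:**
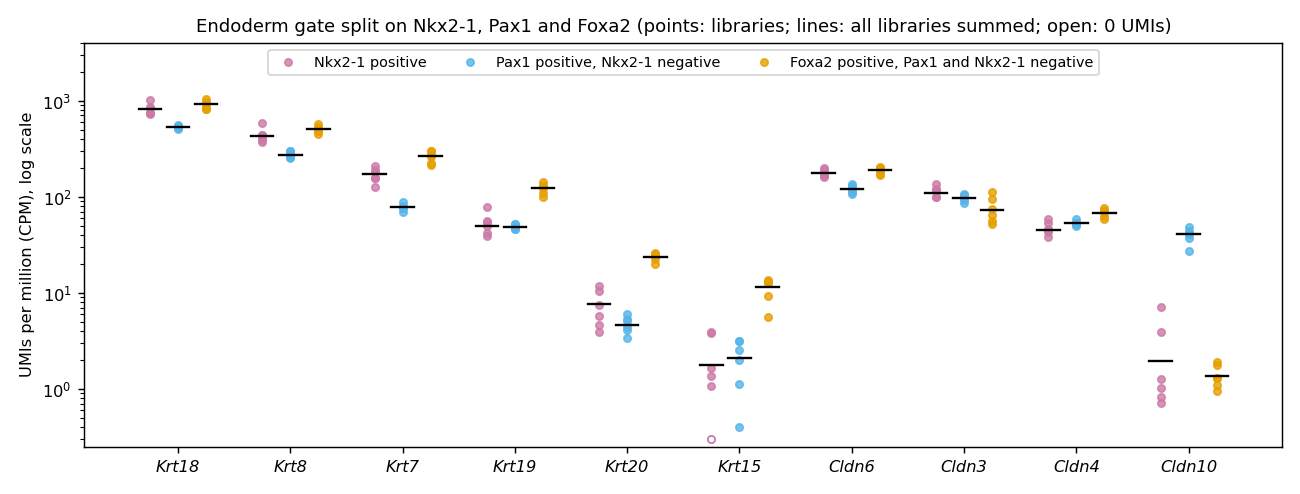
Levels of 10 members in 3 subsets of the endoderm gate, in CPM on a log axis; points are libraries, black lines the summed level, open points 0 UMIs. Cldn10 is high in the Pax1 subset (40.6 CPM against 1.95 and 1.36), while Krt7, Krt8 and Krt18 are lowest there.

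The other gates were split by markers from the same lists, again after the members' values had been seen, and of the 26 single-marker splits run in the 5 gates those described were chosen by their values. In endothelium, Cldn5 was at 405 CPM in 362 cells with a UMI of Sox17 (an arterial and vascular factor) and none of Nfatc1 (a factor of endocardium), and at 36.1 CPM in 616 cells with Nfatc1 and no Sox17. The libraries of the first stood at 345 to 617 CPM and of the second at 13.8 to 61.9, with no overlap. Cells with both were at 182 CPM and cells with neither at 184. The share of endothelial cells with a Sox17 UMI was 48.3% in library 1, the lowest, where Cldn5 was also lowest, and 54.1% to 67.6% in the others. Of the 4 subsets, library 1 was the lowest only in cells with both markers, at 113 CPM against 164 to 252. The part of the Sox17 share was not tested.

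Krt79, a type II keratin known from hair follicle openings, was at 8.08 CPM in endothelium (7.44 to 8.74, 606 UMIs), at most 0.359 in the other gates and 0.449 outside the gates. It was highest there in 6 of 6 libraries, at 9.06, 7.52, 3.53, 8.92, 9.54 and 7.49 CPM. In endothelial cells with a UMI of Nfatc1 it was at 9.99 CPM, against 1.63 in those without, and it was higher with Nfatc1 in 6 of 6 libraries. The endothelium gate also carried Stmn2, a neuronal marker, at 62.8 CPM (22.7 to 73.6 over libraries), with the other 5 neuronal markers at 0.0133 to 3.15 CPM. In endothelial cells with a UMI of Stmn2, Krt79 was at 16.8 CPM, against 3.89 in those without, higher in 5 of 6 libraries, and its part in the Krt79 level was not tested. Krt10 made up 39.6% of endothelial keratin UMIs and Krt79 21.0%. Krt18 made up 14.9% and Krt8 9.84%. Endothelial Krt18 had 3.55 UMIs per Cldn7 UMI (2.89 to 4.38), next to 3.52 (3.46 to 3.59) in endoderm and 2.89 (2.81 to 2.97) in surface ectoderm. It had 12.6 UMIs per Krt7 UMI (8.89 to 18.5), against 4.67 in endoderm and 3.33 in surface ectoderm. Per UMI of Epcam, an epithelial adhesion protein, it had 1.82 (1.55 to 2.14), against 0.843 and 0.909. Epcam was used for gating, and cells with UMIs of both Epcam and Cdh1 were kept out of the endothelium gate. This ratio is therefore set in part by the gates. Endothelial Krt19 had 0.488 UMIs per Cldn7 UMI (0.351 to 0.671), against 0.368 and 0.460.

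In mesenchyme the ratio of Krt18 to Cldn7 was 50.1 (44.9 to 55.97) and in epicardium 815 (583 to 1177), so there Krt18 was not accompanied by Cldn7 in the proportion of the epithelia. Cells with UMIs of both Epcam and Cdh1 were kept out of these gates too. Mesenchymal Krt18 was at 60.3 CPM in 5537 cells with a UMI of Col1a1, a fibrillar collagen, and 19.8 in the 6363 without, higher with it in 6 of 6 libraries. Krt8 was at 35.1 and 7.19 CPM in the same cells. Where Dlx3, a factor of distal arch mesenchyme, had a UMI, Krt18 was at 8.95 CPM against 46.4, lower in 6 of 6 libraries. Mesenchymal Cldn11 was at 43.3 CPM in 1787 cells with Aldh1a2 and 2.07 in those without, and at 31.5 against 2.38 with and without Osr1, a factor of lateral mesoderm. All of these held in 6 of 6 libraries. Cells with and without a marker differ in depth (medians of 32060 UMIs with Aldh1a2 and 35460 without), and CPM divides by each subset's own total.

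In epicardium, Krt7 was at 125 CPM in 865 cells with Aldh1a2 and 52.1 in 328 without, higher with it in 6 of 6 libraries. The libraries 1, 2 and 3 stood above 4, 5 and 6 within the Aldh1a2 cells as well, at 166, 158 and 148 against 74.0, 50.9 and 61.5 CPM. Krt7 was at 200 CPM with Muc16 and 84.4 without. Krt19 was split by Dcn, a matrix proteoglycan, and stood at 221 CPM in 1050 cells with it and 29.6 in 143 without. The epicardium gate also carried Tubb3 at 200 CPM and Tnnt2 at 108, with Ryr2 at 27.0, Actn2 at 4.88, Tnni3 at 1.15, Myh6 at 0.826 and Myh7 at 0.574 CPM for the other cardiomyocyte markers. Of the other neuronal markers, Elavl3 was at 0.539, Isl2 at 0.359 and Stmn2 at 0.305 CPM, and Neurog1 and Neurod1 had 0 UMIs.

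In surface ectoderm the split used Grhl3, a factor of the outermost ectodermal layer and itself a gate marker. Cells with a Grhl3 UMI therefore needed fewer other gate markers than cells without it. In 184 cells with a UMI of it, Krt8 was at 833 CPM against 332 in 1106 without, Krt18 at 1044 against 527, Cldn3 at 144 against 67.4, Cldn7 at 303 against 193 and Cldn4 at 64.4 against 42.8, each higher in 6 of 6 libraries. Krt14 went the other way, at 6.22 CPM with Grhl3 and 15.1 without, lower with it in 5 of 6. Krt14 was higher in cells with Bnc1, a basonuclin of basal keratinocytes, at 19.5 CPM against 10.9, in 6 of 6 libraries. Cldn11 was higher with Sema3d, at 10.46 CPM against 4.46, in 6 of 6.

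**Figure D5:**
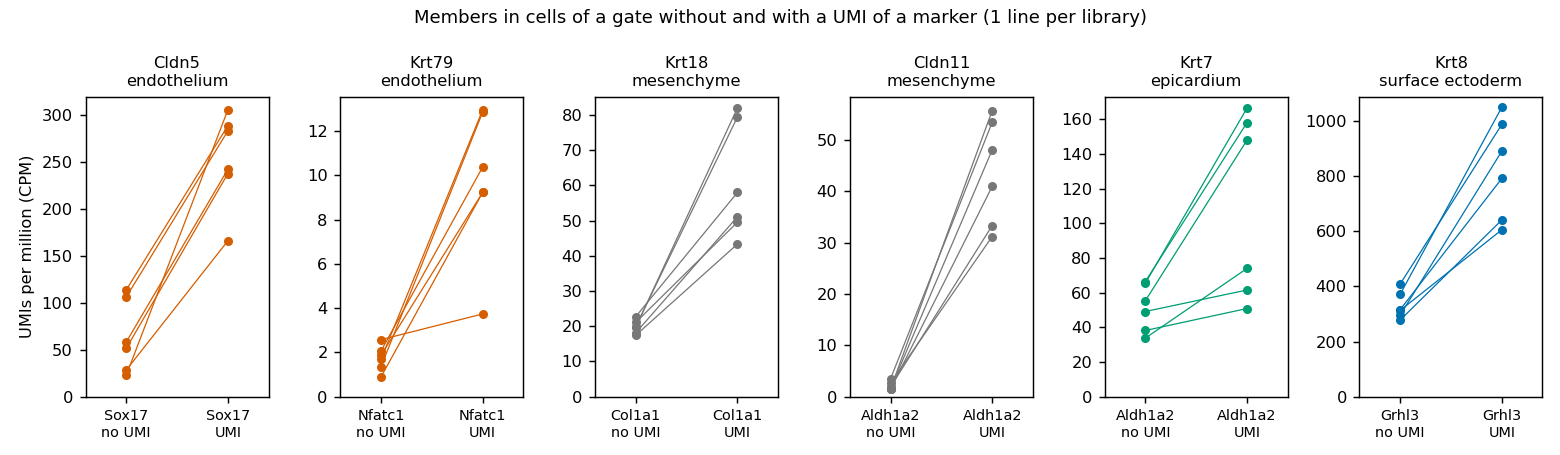
Levels of 6 members in cells of a gate without and with a UMI of a marker, in CPM on axes that start at 0; each line joins the 2 values of 1 library. All 6 lines rise in each panel, as for endothelial Cldn5 with Sox17 (245 CPM against 55.8) and mesenchymal Cldn11 with Aldh1a2 (43.3 against 2.07).

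Genes that work with the members were counted from 5 lists. Of 16 tight junction partners found, 11 were at least 2-fold above mesenchyme in surface ectoderm, 10 in endoderm, 7 in epicardium and 8 in endothelium, and 0, 2, 2 and 4 were at least 2-fold below it. Of all tested genes, 11.1%, 10.4%, 14.5% and 21.7% were that far below mesenchyme in the same order of gates, and the shares above it are those given earlier. Crb3, a polarity protein, was at 39.5 CPM in surface ectoderm and 64.1 in endoderm against 0.163 in mesenchyme, and Ocln (occludin) at 15.6 and 31.2 against 0.213. In epicardium Cgnl1 (paracingulin) was at 159 CPM against 31.2, whereas Ocln was at 0.0718. Of 15 genes tested of desmosomes, hemidesmosomes and other keratin linkers, which anchor keratins to the membrane, 11, 10, 8 and 4 were higher in the same order of gates and 1, 1, 1 and 2 lower. Desmoplakin (Dsp) was at 71.3 CPM in epicardium, 68.9 in endoderm and 47.3 in surface ectoderm, against 6.15 in mesenchyme.

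Other intermediate filament genes were counted in the same way. Of 13, at least 2-fold above mesenchyme were 2 in surface ectoderm, 0 in endoderm, 4 in epicardium and 3 in endothelium, and at least 2-fold below it were 4, 3, 2 and 5. Vim, the filament protein of mesenchymal cells, was at 69.02 CPM in surface ectoderm, 55.3 in endoderm, 2108 in epicardium, 3610 in endothelium and 362 in mesenchyme, so the epicardium carried Vim together with Krt8, Krt18 and Krt19. Of 12 epithelial regulators, 11 were higher in surface ectoderm, 12 in endoderm, 5 in epicardium and 1 in endothelium, 0, 0, 1 and 4 were lower, and Trp63 and Grhl3 among them are gate markers. Grhl2, which was not gated on, was at 112 CPM in surface ectoderm, 67.0 in endoderm and 0.323 in epicardium. Of 6 classical cadherins, the adhesion proteins of adherens junctions, 2, 2, 1 and 1 were higher than in mesenchyme in the same order of gates and 3, 1, 0 and 5 lower. Cdh3 (P-cadherin) was at 172 CPM in surface ectoderm, 117 in endoderm and 84.3 in epicardium against 12.5 in mesenchyme, and Cdh1 and Cdh5 are gate markers.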

How the data were processed

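The deposited values are UMI counts, whole numbers per gene and cell barcode without normalization, in 1 matrix that covers every library. Cell Ranger 5.0.0 made it, per the file headers. The submitters' processing notes also name CASAVA 1.8, Seurat 4 and build mm10. Settings for calling cells and for strand were not given in the sources used here. The matrix was treated as 1 sample, since no file used here pairs a library with a sample, and the streptozotocin comparison planned with edgeR was not run.

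The members and the gene lists were chosen with earlier results of these data known. Named with values is every member with at least 10 CPM in at least 1 gate, and members between 2 and 10 CPM are named by their highest gate.

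Surface ectoderm cells had a UMI of Epcam or Cdh1 and of at least 3 of Trp63, Wnt6, Perp, Tfap2c, Grhl3 and Wnt3, with at most 1 endoderm marker. Endoderm cells had Epcam or Cdh1, at least 2 of Foxa1, Foxa2, Shh, Pax1, Nkx2-3 and Hhex, and more of these than ectoderm markers. Epicardium cells had at least 4 of Wt1, Upk3b, Upk1b, Tbx18, Lrrn4 and Msln, endothelium cells at least 4 of Cdh5, Pecam1, Tie1, Tek, Egfl7 and Kdr, and mesenchyme cells at least 5 of Pdgfra, Prrx1, Prrx2, Twist1, Twist2 and Col3a1. Cells had at most 2 markers of each list of other cell types (erythroid 5), and entered only 1 gate. In the epicardium, endothelium and mesenchyme gates, cells had at most 1 of Epcam and Cdh1. They also had at most 2 surface ectoderm and at most 2 endoderm markers. Epicardium, endothelium and mesenchyme markers were likewise limited to 2 outside their own gate, with 3 mesenchyme markers allowed in the endothelium gate. Mesenchyme markers did not bar a cell from the epicardium gate. These numbers were set after marker counts, not member levels, had been seen. No doublet caller was run, and a limit on UMIs per cell was an alternative.

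UMIs were summed per gate and divided by the gate's total (CPM). Intervals are 95% exact Poisson for levels, exact binomial (Clopper-Pearson) for shares, and the ratio interval that follows from the binomial one. A gene was called at least 2-fold higher with at least 10 UMIs in the higher gate, a count of 0 being set to 3 counts, among genes at 0.1 CPM or more over all retained cells. This call rule was checked on simulated counts with counting error only. The genes changed there were at 1 CPM or more in mesenchyme, so changes in genes below that level were not checked. Of the endoderm markers, 1 that was not highest in its gate is not reported here. Coordinates are GRCm38 (GENCODE M21), and promoters are RefSeq GRCm38.p6. Python 3.11.15, numpy 2.4.6, scipy 1.17.1, pandas 2.3.3 and matplotlib 3.10.9 were used.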

Additional observations from a re-analysis of the deposited data

How the results depend on the processing

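Counts of members at least 2-fold higher or at 10 CPM or more were recomputed under each alternative, and 154 of 161 stayed within 1.5 times the reported count. With only genes at 1 CPM or more over all cells, fewer members could be called, and 13 were above mesenchyme in endoderm, 6 in epicardium and 2 in endothelium, 1 was higher in surface ectoderm than in endoderm and 2 the reverse. With no such limit, 9 members were higher in endoderm than in surface ectoderm. With cells thinned to 10000 UMIs, 9 were above mesenchyme in epicardium. Leaving out any 1 library moved no count by over 1.5 times.

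Of the highest levels of the 16 named members, 15 stayed within 1.5 times under every alternative. The exception was Cldn10 in endoderm, at 10.47 CPM instead of 20.03 with 1 more marker needed. The log2 ratio of surface ectoderm over endoderm changed sign for members near equality. For Cldn7 it was 0.05 and became -0.01 as the median over libraries, for Krt8 it was 0.09 and reached -0.11 over 3 alternatives, among them leaving out library 2, and for Cldn6 it was 0.05 and became -0.09 with 1 more marker. Splits by a single marker and the levels outside the gates were not recomputed under these alternatives. No paired analysis was possible because no file used here pairs a library with a sample or replicate number. Single-marker splits miss cells whose marker UMI was not captured, and at the median depths of 24040 to 45980 UMIs a level below 2 CPM in surface ectoderm or endoderm rests on few UMIs per library.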

Other observations

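Outside the gates, cells were described by other marker lists, a choice made after member levels had been seen. Of 17570 ungated cells, 3460 had at least 4 cardiomyocyte markers. They expressed Krt18 at 99.4 CPM (97.9 to 101.0), Krt8 at 87.3 (85.9 to 88.8) and Krt19 at 36.3 (35.4 to 37.2), with Cldn7 at 5.54. The libraries stood at 77.3 to 110 CPM for Krt18 and 67.7 to 97.9 for Krt8, above every library of the mesenchyme gate (27.7 to 49.0 and 10.8 to 27.0). Krt20, a keratin of gut lining, was at 4.83 CPM in the same cells. Unlike the mesenchyme gate, where Cldn7 was at 0.752 CPM, this class had no limit on epithelial or epicardial markers. The erythroid and neuronal classes below had none either. No doublet caller was run, so cells mixed with epithelial or epicardial RNA can be in these classes.

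Cldn13, a claudin that is best known from mouse blood-forming tissue, had its UMIs almost wholly in 1479 cells with all 6 erythroid markers. It was at 30.8 CPM there (29.7 to 31.9) and at 28.4, 28.6, 35.0, 27.8, 27.1 and 31.5 CPM in libraries 1 to 6, and 78.2% of those cells had a UMI of it. Its highest level in a gate was 0.0718 CPM. A smaller class of 250 cells with at least 4 neuronal markers had more Krt8 than Krt18, at 146 CPM (138 to 155) against 64.2 (58.9 to 69.7), the reverse of every gate, and carried Cldn3 at 31.6 and Cldn6 at 24.2 CPM. Krt8 exceeded Krt18 in each of the 5 libraries with at least 20 such cells, at 133 to 161 CPM against 48.01 to 93.9. Another 1806 cells had UMIs of both Epcam and Cdh1 but entered no gate, and their levels, with Krt18 at 601 CPM and Cldn7 at 182, were close to those of the gated epithelia.

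The epicardial Krt7 levels of the 6 libraries, which have no group, fell into 2 clusters, 144, 138 and 135 CPM in libraries 1, 2 and 3 and 59.7, 47.1 and 57.7 CPM in libraries 4, 5 and 6. Ectodermal Cldn11 did so the other way, at 2.86, 3.70 and 2.74 CPM and at 15.5, 12.2 and 14.7 CPM. In that gate Sema3d was at 78.4 to 85.5 CPM in libraries 1 to 3 and 95.1 to 115 in 4 to 6. Wnt6, a gate marker, was at 423 to 428 and 328 to 407 CPM. Grhl3, Nkx2-3 and Bnc1 had no such order there. Krt7 and Cldn11 were not alone in this. Libraries 1 to 3 were all above libraries 4 to 6 for epicardial Krt19 (209 to 242 against 128 to 199 CPM). The same held for ectodermal Krt15 (23.3 to 28.7 against 15.2 to 18.8). It also held for endodermal Cldn3 (95.5 to 106 against 80.7 to 88.0) and Cldn4 (58.2 to 62.4 against 52.9 to 57.7). Libraries 1 to 3 were below for endodermal Krt10 (24.0 to 26.1 against 27.9 to 30.0) and Cldn8 (12.3 to 14.9 against 16.9 to 20.1). Krt10 had that order in epicardium (16.6 to 18.1 against 19.4 to 22.5) and mesenchyme (21.9 to 23.3 against 25.1 to 27.2) too. Its surface ectoderm and endothelium libraries overlapped. These cases were chosen after the values were seen, and the share of all genes and gates with such an order is not given. What sets the libraries apart was not tested.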
